A study of Mus musculus with 12 samples.

Results

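Type I interferon-stimulated genes were followed in cultured mouse cardiac myofibroblasts. The set was a list of 33 gene symbols, and each gene was represented by the probe set that carried its symbol in the annotation of the array platform, with the highest mean where there was a choice. Of the 33 genes, 32 were measured, out of 19505 named genes in all. Ifi44 is not analysed here. Each of the 32 had a single probe set and none had the same values as another gene.

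The cells were primary fibroblasts from hearts of wildtype C57BL/6J mice aged 1-7 days, kept in culture for 10 to 14 days, by which time they were myofibroblasts, fibroblasts that contract and lay down matrix. Treatment lasted 8 h and was either carrier, 40 nM of the soluble receptor protein sCD74, 8 nM of the cytokine MIF (macrophage migration inhibitory factor), which CD74 binds, or both proteins at these doses. Each of these 4 groups had 3 arrays. The titles give every replicate number a code of the form of a date, shared by all 4 groups, so each of the 3 date codes held 1 array of every group. What the codes date is not stated, nor how many animals went into a culture or whether other cell types were removed. Nothing says that the replicates were separate isolations, so the p-values speak only of the spread among these 12 arrays, which may be technical.

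Type I interferons are secreted when a cell senses foreign nucleic acid, and they act on the receptor formed by Ifnar1 and Ifnar2. The receptor's kinases activate a transcription factor complex, with STAT2 and IRF9 among its parts, that binds a DNA element, the interferon-stimulated response element (ISRE), and switches on a large set of genes. The products of these genes sense viral RNA and DNA, block viral replication and trafficking, attach or remove the ubiquitin-like protein ISG15, and feed back on the pathway. Macrophages and fibroblasts both run this programme, and low tonic interferon signalling keeps many of the genes measurable in unstimulated cells.

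The element can be read in the promoters of members whose values are given array by array below. RefSeq promoter windows of 300 bases (250 before to 50 after the annotated start, build GRCm38.p6) were at hand for 24 of the 33 genes, which have 27 windows. The letters GAAANNGAAA, searched on both strands (TTTCNNTTTC on the other), were in 10 of the 27 windows, or 37.0%, and in 3.44% of all 32851 windows. The sequences below are the stretches with these letters upstream of the start, with 20 bases on each side, 5′ to 3′ in the direction of the gene, and capitals mark the matched letters, overlapping matches joined.
Isg15, chr4:156200855-156200916, minus strand: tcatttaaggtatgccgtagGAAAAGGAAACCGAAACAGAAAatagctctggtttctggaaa
Bst2, chr8:71537567-71537622, minus strand: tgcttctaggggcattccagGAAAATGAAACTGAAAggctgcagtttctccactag
Stat2, chr10:128270256-128270305, plus strand: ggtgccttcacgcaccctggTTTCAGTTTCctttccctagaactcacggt
Rsad2, chr12:26456543-26456592, minus strand: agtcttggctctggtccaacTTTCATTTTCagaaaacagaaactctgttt
Ifit3, chr19:34583353-34583436, plus strand: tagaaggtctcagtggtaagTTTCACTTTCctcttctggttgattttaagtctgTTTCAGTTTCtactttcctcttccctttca
Ifit1, chr19:34640765-34640833, plus strand: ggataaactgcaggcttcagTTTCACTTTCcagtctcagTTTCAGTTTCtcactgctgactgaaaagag
Isg15 had 3 overlapping matches and Bst2 had 2, while Ifit1 and Ifit3 had 2 separate matches each. Another letter pattern, TTCNNNGAA, the form of a site for STAT dimers, was in 5 of the 27 windows (18.5%) and in 8.3% of all windows. A match is a description of the letters and not a measured binding site, and a window without one says nothing of the factor.

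The deposited values are log2 intensities, and a difference of 1 on this scale is a doubling only if the scale is a plain log2. The mean of the negative control probe sets' medians, 7.53, served as a floor: below it a level has no measured size. Over the 12 arrays, 7 members had a mean below the floor (Irf7, Dhx58, Oas1a, Oas2, Oas3, Oasl1 and Mx1) and 25 lay above. By group, carrier had 9 members below it, sCD74 had 7, MIF had 7 and both proteins had 6. Ifit1 and Rsad2 were below it with carrier only, and Irf7 was below it except with both proteins.

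The cultures carried the markers their label names. The mean level of 9 measured fibroblast markers lay between 15.23 and 15.45 on every array, and that of 5 myofibroblast markers between 13.08 and 14.08. Many macrophage markers were also abundant, with means over the arrays of 17.22 for Lyz2 (lysozyme), 15.05 for C1qb (complement) and 13.65 for Csf1r (a growth factor receptor). Others were low: Cd14 at 8.48 and Cx3cr1 at 8.16 were not far above the floor, and Cd163 was below it at 6.05. All 6 measured lymphocyte markers were below the floor. In bulk RNA, fewer cells of a type and less RNA per cell cannot be told apart.

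Most of the genes had their lowest value on an array of date code 1, and within date codes 2 and 3 most were lowest with carrier. The co-treated array of date code 2 held the highest value of 23 of the 32 genes. The lowest value lay on the MIF array of date code 1 for 12 genes, on the sCD74 array of date code 1 for 10 and on the carrier array of date code 1 for 5. Within date code 2 the carrier array was the lowest of the 4 for 20 genes, within date code 3 for 23, and within date code 1 for 5.

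**Figure D1:**
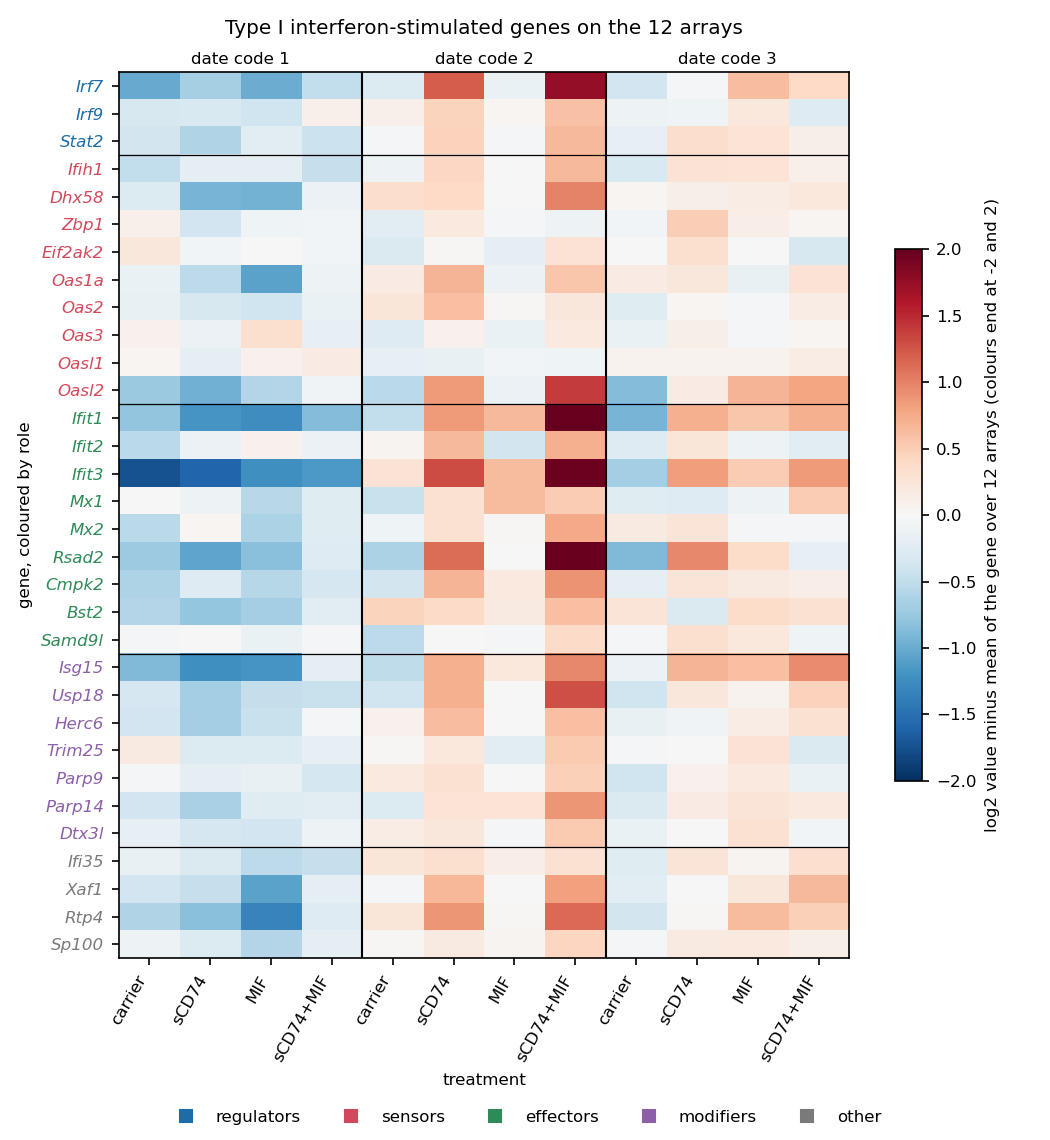
Log2 value of each of the 32 measured genes (vertical axis, coloured by role) on each of the 12 arrays (horizontal axis, by date code and treatment), minus the mean of that gene over the 12 arrays. Blue is below and red above the gene's mean, and the co-treated array of date code 2 holds the highest value of 23 genes.

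The values that follow are log2 levels in the order date code 1, 2 and 3. The regulators came first: Irf7 (a transcription factor that drives the interferon-alpha genes), Irf9 and Stat2 (parts of the complex on the response element). Irf7 stood at 6.11, 6.84 and 6.74 with carrier, at 6.46, 8.33 and 7.09 with sCD74, at 6.13, 6.996 and 7.75 with MIF and at 6.63, 8.88 and 7.53 with both. Its levels were all below the floor with carrier, and the highest, with both proteins in date code 2, was well above it. Irf9 stood at 9.08, 9.49 and 9.29 with carrier, at 9.08, 9.83 and 9.30 with sCD74, at 8.996, 9.43 and 9.61 with MIF and at 9.50, 9.98 and 9.13 with both. The groups overlapped, and with both proteins the array of date code 3 was the lowest of its group. Stat2 stood at 10.93, 11.25 and 11.13 with carrier, at 10.68, 11.75 and 11.65 with sCD74, at 11.06, 11.27 and 11.56 with MIF and at 10.87, 11.94 and 11.41 with both. Its 4 arrays of date code 1 were the 4 lowest, and every treated group overlapped with carrier. Against carrier, co-treatment moved Stat2 by +0.31 ± 0.29 and Irf9 by +0.25 ± 0.24 (SE). It moved the mean of Irf7 by at least +0.15, a bound that sets carrier at the floor. Among the co-treated arrays of Irf7 only that of date code 2 lay clearly above the floor. None passed limma's test (adjusted p = 0.999 for each).

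Among the sensors, Oasl2 moved most with treatment, and the well-measured kinase Eif2ak2 did not pass any comparison. Oasl2 is a member of the oligoadenylate synthetase family, Ifih1 encodes a cytosolic sensor of long viral RNA, Zbp1 a sensor of left-handed nucleic acid that can start necroptosis, and Eif2ak2 the kinase PKR, which shuts down translation when it binds viral RNA. Oasl2 stood at 9.72, 9.92 and 9.60 with carrier, at 9.50, 11.32 and 10.63 with sCD74, at 9.87, 10.35 and 11.14 with MIF and at 10.39, 11.86 and 11.24 with both. All 3 co-treated arrays lay above all 3 carrier arrays, as in 4.52% of all genes, and the carrier arrays lay within a narrow range. Ifih1 stood at 11.003, 11.39 and 11.18 with carrier, at 11.29, 11.90 and 11.78 with sCD74, at 11.30, 11.50 and 11.77 with MIF and at 11.03, 12.14 and 11.59 with both. Carrier was the lowest array of each date code, and the ranges of the groups overlapped. Zbp1 stood at 8.10, 7.78 and 7.94 with carrier, at 7.61, 8.19 and 8.49 with sCD74, at 7.91, 7.96 and 8.13 with MIF and at 7.94, 7.89 and 8.04 with both. Its sCD74 arrays had the widest spread of the 4 groups.

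Eif2ak2 stood at 11.98, 11.47 and 11.76 with carrier, at 11.70, 11.78 and 12.08 with sCD74, at 11.76, 11.57 and 11.76 with MIF and at 11.71, 12.05 and 11.44 with both. Neither treatment nor date code ordered these values. Co-treatment differed from carrier by +1.42 ± 0.45 for Oasl2, +0.40 ± 0.25 for Ifih1, +0.02 ± 0.19 for Zbp1 and -0.01 ± 0.18 for Eif2ak2 (log2, SE), at adjusted p = 0.999 in each case. The signs for Zbp1 and Eif2ak2 turned when single arrays were left out. The other 5 sensors, Dhx58, Oas1a, Oas2, Oas3 and Oasl1, were below the floor in every group, so no size is given for them. Their means over the 12 arrays ran from 3.64 (Oasl1) to 7.14 (Dhx58).

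Among the antiviral effectors, Ifit1, Ifit3 and Rsad2 spread most widely over the arrays. Ifit1 and Ifit3 encode proteins that bind viral RNA, Rsad2 encodes viperin, an enzyme that makes a chain-ending nucleotide, and Bst2 encodes tetherin, which holds budding virus at the cell surface. Ifit3 stood at 9.76, 11.78 and 10.81 with carrier, at 9.91, 12.81 and 12.33 with sCD74, at 10.27, 12.13 and 12.000 with MIF and at 10.34, 13.46 and 12.35 with both. The arrays of date code 1 were the lowest in every group and did not overlap with the others. Ifit1 stood at 7.04, 7.34 and 6.90 with carrier, at 6.66, 8.68 and 8.55 with sCD74, at 6.59, 8.48 and 8.39 with MIF and at 6.96, 9.87 and 8.55 with both. Carrier stayed below the floor, while every treated array of date codes 2 and 3 stood at 8.39 or above. Rsad2 stood at 7.002, 7.10 and 6.85 with carrier, at 6.68, 8.84 and 8.70 with sCD74, at 6.90, 7.72 and 8.09 with MIF and at 7.48, 9.85 and 7.56 with both. All 3 co-treated arrays lay above all 3 carrier arrays, as in 4.52% of all genes, and the co-treated arrays of date codes 1 and 3 were at about the floor.

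Bst2 stood at 13.02, 14.05 and 13.86 with carrier, at 12.83, 13.98 and 13.31 with sCD74, at 12.92, 13.78 and 13.97 with MIF and at 13.38, 14.21 and 13.91 with both. Its arrays of date code 1 were lower than the others, except that the sCD74 array of date code 3 lay below the co-treated array of date code 1, and the 4 groups overlapped. Against carrier, co-treatment moved Ifit3 by +1.26 ± 0.87 and Bst2 by +0.19 ± 0.36 (log2, SE), which was -0.12 without the carrier array of date code 1. The mean was at least 0.93 higher for Ifit1 and at least 0.76 for Rsad2, with carrier set at the floor and co-treated arrays as measured. All 4 had an adjusted p of 0.999. Without the co-treated array of date code 2, Ifit1 and Rsad2 differed by +0.66 and +0.54, with carrier not set at the floor. These 2 values rest on carrier levels below the floor, so they have no measured size and cannot be set beside the bounds. The co-treated levels left were 6.96 and 8.55 for Ifit1. For Rsad2 they were 7.48 and 7.56, at about the floor of 7.53. Within date code 1 Ifit1 was lower with both than with carrier, both below the floor. Ifit3 has a near-identical copy, Ifit3b, and whether the probes tell them apart was not examined here. Of the other effectors, Cmpk2 (a mitochondrial nucleotide kinase next to Rsad2 in the genome) differed from carrier by +0.62 ± 0.32 with sCD74 and +0.63 ± 0.32 with both, and Ifit2 by +0.50 ± 0.26 and +0.36 ± 0.26. Samd9l, an inhibitor of translation, differed from carrier by +0.29 ± 0.18 with sCD74. Its 3 sCD74 arrays lay just above the carrier arrays (lowest 12.07, against 12.06 for the highest carrier array). Such a separation was seen in 2.51% of all genes. Mx2, a GTPase, differed by +0.31 ± 0.26 with both, and Mx1 was below the floor.

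Genes of the ISG15 system and of ADP-ribosylation made the next group. Isg15 encodes the ubiquitin-like modifier itself, Herc6 the ligase that attaches it in the mouse, Usp18 the protease that removes it and that also damps the interferon receptor, and Parp14 an ADP-ribosyltransferase. Isg15 stood at 7.28, 7.66 and 8.04 with carrier, at 6.94, 8.88 and 8.84 with sCD74, at 6.98, 8.38 and 8.76 with MIF and at 7.97, 9.12 and 9.10 with both. The 3 lowest values came from date code 1, and in each date code the co-treated array was the highest. Usp18 stood at 8.36, 8.30 and 8.30 with carrier, at 8.03, 9.41 and 8.94 with sCD74, at 8.23, 8.70 and 8.77 with MIF and at 8.25, 9.99 and 9.16 with both. The carrier arrays were close together, and the co-treated array of date code 1 lay just below them.

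Parp14 stood at 9.17, 9.28 and 9.26 with carrier, at 8.90, 9.82 and 9.71 with sCD74, at 9.31, 9.81 and 9.80 with MIF and at 9.33, 10.43 and 9.74 with both. All MIF arrays and all co-treated arrays lay above all carrier arrays, as in 3.64% of all genes with MIF and 4.52% with both. The sCD74 arrays fell on either side. Herc6 stood at 10.79, 11.27 and 11.03 with carrier, at 10.49, 11.80 and 11.10 with sCD74, at 10.72, 11.18 and 11.32 with MIF and at 11.14, 11.77 and 11.47 with both. The co-treated array was the highest within date codes 1 and 3. Co-treatment differed from carrier by +1.07 ± 0.54 for Isg15, +0.81 ± 0.39 for Usp18, +0.60 ± 0.28 for Parp14 and +0.43 ± 0.29 for Herc6 (log2, SE). None passed (adjusted p = 0.999). Parp9 and Dtx3l, partners in a complex that modifies histones and ubiquitin, differed by +0.08 ± 0.22 and +0.17 ± 0.22, and Trim25, a ubiquitin ligase of RNA sensing, by -0.03 ± 0.22.

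The remaining measured members were Rtp4 (a transporter of receptors that damps interferon responses), Xaf1 (a partner of the apoptosis inhibitor XIAP), Sp100 (a component of nuclear bodies) and Ifi35. Rtp4 stood at 7.54, 8.39 and 7.79 with carrier, at 7.32, 9.03 and 8.18 with sCD74, at 6.81, 8.16 and 8.78 with MIF and at 7.88, 9.27 and 8.63 with both. The array of date code 1 was the lowest in each group, and it was below the floor with sCD74 and with MIF. Xaf1 stood at 9.41, 9.75 and 9.57 with carrier, at 9.32, 10.46 and 9.77 with sCD74, at 8.71, 9.79 and 10.01 with MIF and at 9.61, 10.60 and 10.43 with both. MIF in date code 1 was the lowest of the 12. Sp100 stood at 13.59, 13.71 and 13.65 with carrier, at 13.41, 13.87 and 13.87 with sCD74, at 13.11, 13.74 and 13.89 with MIF and at 13.51, 14.11 and 13.81 with both. The carrier arrays lay within a range smaller than that of any treated group. Co-treatment differed from carrier by +0.69 ± 0.52 for Rtp4, +0.64 ± 0.36 for Xaf1, +0.16 ± 0.21 for Sp100 and +0.11 ± 0.25 for Ifi35 (log2, SE), each at adjusted p = 0.999.

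**Figure D2:**
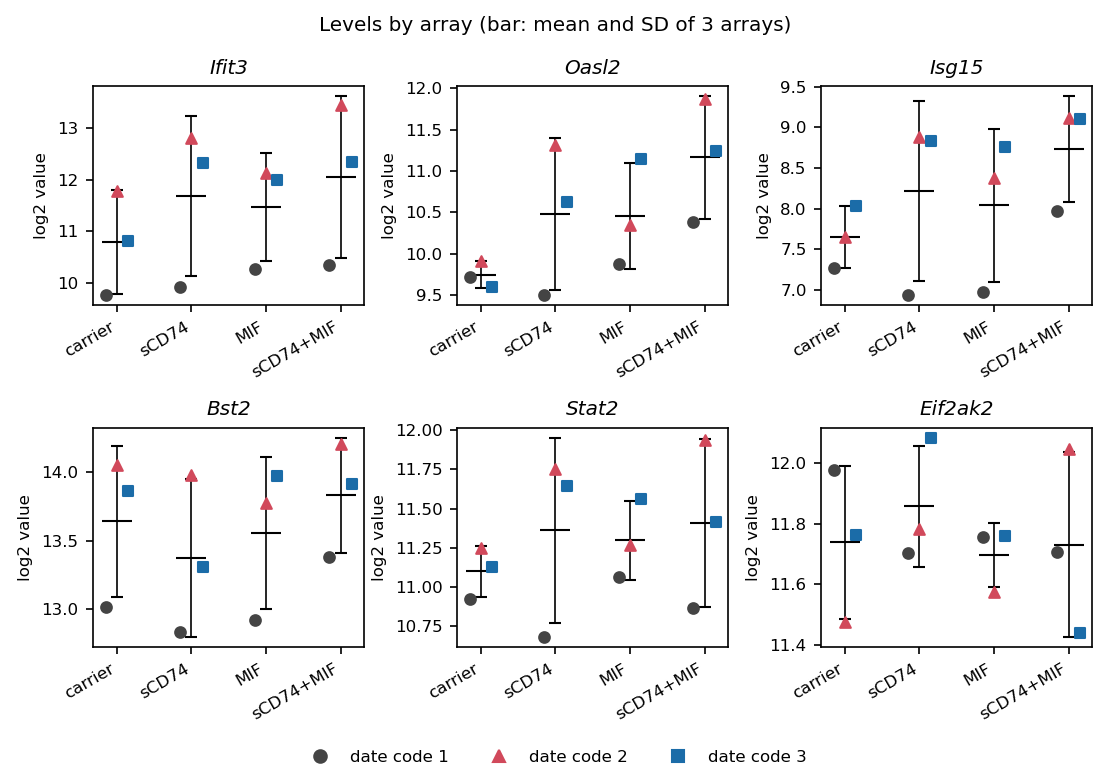
Log2 level (vertical axis) of 6 members in the 4 groups (horizontal axis). Each point is an array, marked by its date code, and the bar gives mean and SD of 3 arrays. In Ifit3 the 4 arrays of date code 1 lie at or below 10.34 and the other 8 at or above 10.81, while Eif2ak2 shows no such order.

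Compared with carrier over all arrays, co-treatment with sCD74 and MIF put 30 of the 32 genes higher, with a median difference of +0.31, where 50.3% of all genes lay higher and the median of all genes was +0.00. No member passed limma's test after Benjamini-Hochberg adjustment, nor did any of the 19505 genes (0% called), with or without the replicate number as a block. At an unadjusted p under 0.05, 1 member was higher in the fit without the block (Oasl2, against 2.13% of all genes) and 13 were in the blocked fit (4.38% of all genes). The 13 were Irf7, Oasl2, Ifih1, Ifit1, Ifit3, Rsad2, Cmpk2, Isg15, Usp18, Herc6, Parp14, Xaf1 and Rtp4. The standard errors given above are of the fit without the block. With the block in limma's fit, the standard error was 0.25 for Ifit3, 0.30 for Oasl2, 0.23 for Isg15 (adjusted p = 0.461 for each) and 0.15 for Bst2 (adjusted p = 0.759). The smallest adjusted p of a member in the blocked fit was 0.461, and over all alternatives for the members named here it was 0.057, for Ifit3. By role, the median difference was +0.31 for the 3 regulators, +0.13 for the 9 sensors, +0.49 for the 9 effectors, +0.43 for the 7 modifiers and +0.40 for the other 4. Of the sensors, 5 were below the floor. The sensor median was the value of Oas2 and the effector median that of Mx1. Both genes were below the floor in every group, so neither median has a measured size. Without the co-treated array of date code 2 the median of the 32 genes fell to +0.10, and without the co-treated array of date code 1 it was +0.54.

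With sCD74 alone, 28 of the 32 genes were higher than with carrier, with a median of +0.23, against 50% of all genes. No member was called (0% of all genes called), and none had an unadjusted p under 0.05 without the block (0.733% of all genes were higher at that p), while 9 did with it (1.53%). Effectors had the largest median of the roles, +0.50, against +0.26 for regulators and +0.13 for sensors. The sensor median was the value of Oas3, below the floor in every group, so it has no measured size. Without the sCD74 array of date code 2 the median of the 32 genes was +0.07 and 20 genes were higher, and without that of date code 1 the median was +0.41.

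With MIF alone, 22 of the 32 genes were higher, with a median of +0.08, against 52.7% of all genes. None was called (0% of all genes), and 0 had an unadjusted p under 0.05 (1.8% of all genes were higher at that p). In the blocked fit 3 members were higher at that p (3.42% of all genes), namely Oasl2, Ifit3 and Parp14, and Oas1a, below the floor, was lower (3.01% of all genes). The median was +0.00 without the MIF array of date code 3 and +0.23 without that of date code 1. The 3 comparisons with carrier share the carrier arrays.

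Set against the single proteins, co-treatment put 29 of the 32 genes above MIF alone (median +0.26, 49% of all genes higher) and 22 above sCD74 alone (median +0.15, 51.7% of all genes higher). No gene was called in either (0% of all genes). At an unadjusted p under 0.05, 1 member was higher against MIF (Oas1a, which is below the floor, against 0.872% of all genes) and 0 against sCD74 (1.46%), and in the blocked fit 9 (1.87%) and 4 (3.17%) were. Without the co-treated array of date code 2 these medians were +0.02 and -0.09, and without the sCD74 array of date code 1 the latter was -0.08. The departure from the sum of the single effects had a median of +0.02, with 17 of 32 genes above 0 (49.1% of all genes) and 0 genes called in limma's fit (0% of all genes). At an unadjusted p under 0.05, 0 members lay above the sum (0.897% of all genes), and 3 did in the blocked fit (2.02%), of which Dhx58 and Oas1a are below the floor in every group and the third was Bst2. This median changed sign with single arrays: it was -0.21 without the co-treated array of date code 2, -0.20 without the sCD74 array and -0.16 without the MIF array of date code 1, and +0.26 without the co-treated array of date code 1. With genes below the floor left out it was -0.03.

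The differences from carrier were also taken within each date code. In date code 1, sCD74 put 8 of the 32 genes above the carrier array of the same code (median -0.20, 51.2% of all genes higher), MIF 10 (median -0.11, 53.2%) and both proteins 20 (median +0.09, 51.2%). In date code 2 these counts were 31 (median +0.51, 49.1%), 20 (median +0.10, 48.4%) and 31 (median +0.67, 48%). In date code 3 they were 29 (median +0.35, 48.4%), 28 (median +0.32, 51%) and 27 (median +0.31, 51.4%). The number of members more than 0.5 above carrier with both proteins was 4 in date code 1 (7.24% of all genes), 21 in date code 2 (2.14%) and 11 in date code 3 (6.78%). With sCD74 it was 1 (5.08%), 18 (1.76%) and 11 (3.03%), and with MIF 2 (8.12%), 6 (3.12%) and 10 (3.52%).

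Members higher in all 3 date codes numbered 8 with sCD74 (12.4% of all genes), 8 with MIF (13.7%) and 17 with both (14.2%). Those whose 3 treated arrays lay above all 3 carrier arrays were Samd9l with sCD74 (2.51% of all genes), Parp14 with MIF (3.64%), and Oasl2, Rsad2 and Parp14 with both (4.52%). In date code 1 the modifiers Isg15, Usp18, Herc6, Trim25, Parp9, Parp14 and Dtx3l were all lower with sCD74 than with carrier, and in date codes 2 and 3 all 7 were higher. The effectors were higher in 5 of 9 cases in date code 1, in 8 in date code 2 and in 7 in date code 3. With both proteins the effectors were higher in 6, 9 and 7 of 9 cases and the sensors in 6, 8 and 8.

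**Figure D3:**
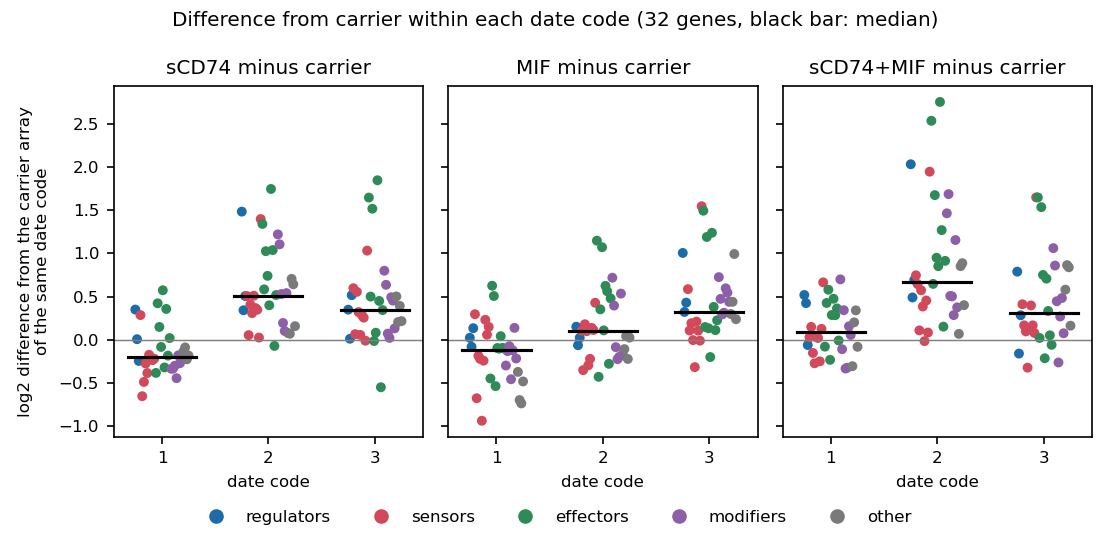
Log2 difference (vertical axis) of each of the 32 genes between a treated array and the carrier array of the same date code (horizontal axis), for sCD74, MIF and both. Points are genes coloured by role and black bars are medians, which run from -0.20 (sCD74, date code 1) to +0.67 (both, date code 2).

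Whether the effect of a treatment in date codes 2 and 3 differed from that in date code 1 was tested in an additional fit, chosen after the values had been seen, with 3 residual degrees of freedom. The split came from these same arrays, so the counts below restate that pattern and are no separate evidence of it. The 3 differences share the carrier arrays, with a single one in date code 1, and are not independent. The difference of effects was above 0 for 30 of 32 members with sCD74 (median +0.55, 48.2% of all genes), for 29 with MIF (median +0.42, 47% of all genes) and for 28 with both (median +0.52, 48% of all genes). No gene was called in any of the 3 (0% of all genes). An unadjusted p under 0.05 with a higher effect was seen for 10 members with sCD74 (3.3% of all genes), 6 with MIF (3.88%) and 4 with both (3.6%), and the smallest adjusted p of a member was 0.701, 0.564 and 0.675. Leaving out each date code in turn gave the following. With both proteins, 32 genes were higher than with carrier without date code 1 (median +0.42, 50% of all genes), 26 without date code 2 (median +0.21, 52.2%) and 29 without date code 3 (median +0.41, 49.6%). With sCD74 these counts were 31 (median +0.40, 48%), 24 (median +0.09, 50.8%) and 23 (median +0.15, 50.2%). With MIF they were 26 (median +0.19, 49.8%), 22 (median +0.12, 53.9%) and 17 (median +0.04, 52.4%).

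Date codes took a larger share of the members' variance than treatments did. The date code took a median of 52.9% of a member's variance over the 12 arrays and the treatment 21.0%, against 28.5% and 19.2% over all genes. These shares are not corrected for noise, which alone gives 4 groups a larger share than 3 date codes. The median SD of a member over the arrays was 0.39, against 0.21 over all genes. Ifit3 had 79.1% of its variance between date codes and 15.3% between treatments, Isg15 had 64.2% and 25.1%, and Eif2ak2 1.98% and 9.57%. In some members the treatment share was the larger, the order that noise alone gives. Among them were Oasl2, with 45.35% for treatment and 32.59% for date code, and Samd9l, with 27.7% and 11.02%.

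With treatment in the fit, 29 of the 32 genes were higher in date code 2 than in date code 1 (median +0.63, 46% of all genes higher), and 23 passed limma's test as higher, against 9.5% of all genes, and 0 as lower (7.38% of all genes). Ifit3 differed by +2.48 ± 0.21 (SE, adjusted p = 1.41e-05), Bst2 by +0.97 ± 0.13 (adjusted p = 0.000258), Xaf1 by +0.89 ± 0.17 (adjusted p = 0.00318), Herc6 by +0.72 ± 0.14 (adjusted p = 0.00403) and Stat2 by +0.67 ± 0.16 (adjusted p = 0.0117). All 3 regulators passed, with 5 of 9 sensors, 6 of 9 effectors, 5 of 7 modifiers and the other 4. Of the 23, 14 were above the floor in both date codes, 7 (Irf7, Dhx58, Ifit1, Mx2, Rsad2, Isg15 and Rtp4) were below it in date code 1 only, and Oas1a and Oas2 were below it in both, so that no size is given for these 9. The count was 14 without the sCD74 array of date code 1, and 15 without the sCD74 or the co-treated array of date code 2.

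The members that did not pass were Zbp1, Eif2ak2, Oas3, Oasl1, Ifit2, Mx1, Samd9l, Trim25 and Parp9. Oas3, Oasl1 and Mx1 were below the floor. The differences of the others ran from -0.07 ± 0.16 for Eif2ak2 to +0.43 ± 0.19 for Ifit2 (log2, SE). In 15 members (11.5% of all genes) the 4 arrays of date code 2 lay above the 4 of date code 1 without overlap.

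Date code 3 lay above date code 1 for 30 of the 32 genes (median +0.45, 46% of all genes higher), and 11 members passed as higher, against 5.48% of all genes. All 11 were among the 23. They were Stat2, Dhx58, Oas1a, Ifit1, Ifit3, Cmpk2, Bst2, Isg15, Ifi35, Xaf1 and Rtp4, with +1.80 ± 0.21 for Ifit3 (adjusted p = 0.000374) and +0.73 ± 0.13 for Bst2 (adjusted p = 0.00418). This count rested on single arrays: it was 3 without the MIF or the sCD74 array of date code 1, 4 without the MIF array of date code 3, 5 without the co-treated array of date code 1 and 6 without the sCD74 array of date code 3. Between date codes 3 and 2 the median was -0.21 with 6 genes higher (48.4% of all genes), and no member was called (0.441% of all genes higher and 0.708% lower).

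Within a single group the step from date code 1 to 2 differed in size. With carrier the median over the 32 genes was +0.31 and 24 were higher, with sCD74 it was +0.93 and 32 were higher, with MIF +0.49 and 28, and with both +0.83 and 30. From date code 1 to 3 the medians were +0.07, +0.50, +0.60 and +0.37. From date code 2 to 3 they were -0.15 with carrier, -0.22 with sCD74 and -0.60 with both, while with MIF the median was +0.18 and 23 genes were higher. These are differences between 2 arrays each, with no replicate.

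**Figure D4:**
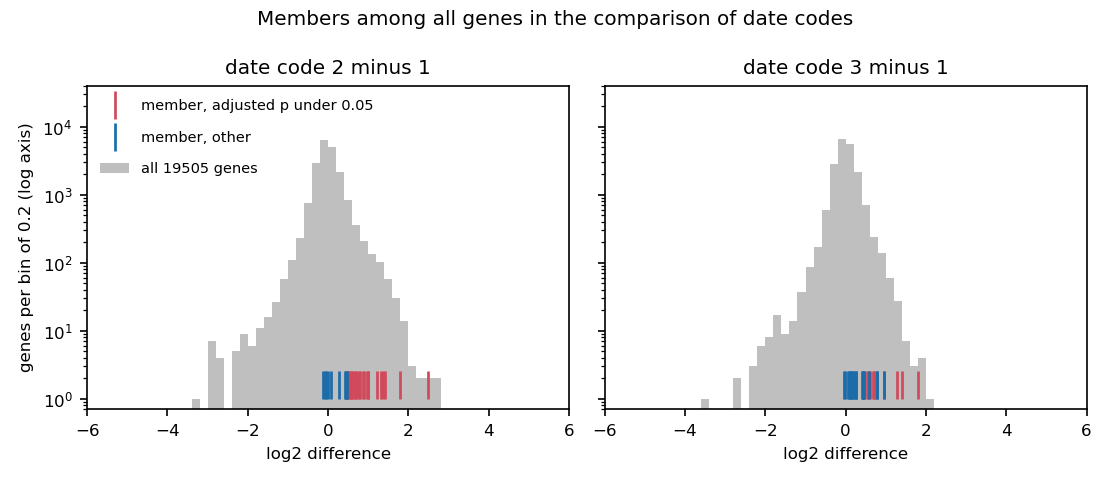
Number of genes (vertical axis, log scale) by log2 difference between date codes (horizontal axis), with the 32 members as ticks, red where the adjusted p is under 0.05. In date code 2 minus 1, 23 ticks are red and 29 lie above 0, and in date code 3 minus 1, 11 are red and 30 lie above 0.

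Markers of other cell types moved with the date code. The mean level of 13 measured macrophage markers was 11.95 to 12.28 on the arrays of date code 1, 13.03 to 13.31 in date code 2 and 12.59 to 12.98 in date code 3. Their median difference was +1.14 for date code 2 minus 1 (12 of 13 called higher, against 9.5% of all genes, with Cd163, below the floor, not called) and +0.54 for date code 3 minus 1 (7 called higher, against 5.48%). Of the 10 measured endothelial markers, 9 went the other way in each comparison, with medians of -1.30 and -0.89 over the 10. In each, 8 were called lower (7.38% and 3.75% of all genes), and 1 was called higher in date code 2 minus 1 (9.5%). Of 8 cardiomyocyte markers, 7 were called lower in date code 3 than in date code 1 (median -1.13, 3.75% of all genes). In date code 2 minus 1, 3 of these were called higher (9.5% of all genes) and 2 lower (7.38%), with a median of +0.05. The 5 myofibroblast markers, which include smooth muscle actin and calponin, were all lower in date codes 2 and 3 than in date code 1 (medians -0.36 and -0.59, with 1 and 4 called lower, against 7.38% and 3.75% of all genes). With both proteins all 5 were above carrier (median +0.37, 50.3% of all genes higher) and none was called (0% of all genes). Most of this came from date code 1, with a median of +0.81 there, +0.05 in date code 2 and +0.07 in date code 3. The part of these cells in the date differences of the interferon-stimulated genes was not tested.

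No macrophage marker passed a comparison of a treatment with carrier, where 0% of all genes did. In the blocked fit 4 of the 13 were lower at an unadjusted p under 0.05 with sCD74 (2.66% of all genes), 2 with MIF (3.01%) and 0 with both. Their median difference from carrier was -0.22 with sCD74, -0.18 with MIF and -0.12 with both. Their mean level per array ranged from 12.28 to 13.24 with carrier, from 11.95 to 13.28 with sCD74, from 12.09 to 13.03 with MIF and from 12.10 to 13.31 with both. Within date code 1 the macrophage markers had a median of -0.47 with sCD74, -0.26 with MIF and -0.23 with both, where the members had -0.20, -0.11 and +0.09. Within date code 2 they had +0.02, -0.22 and +0.00, where the members had +0.51, +0.10 and +0.67. Within date code 3 they had -0.44, -0.02 and -0.15, where the members had +0.35, +0.32 and +0.31. Both lists were thus lower with sCD74 and with MIF in date code 1. Their medians differed in sign with MIF in date codes 2 and 3, with sCD74 in date code 3 and with both in date codes 1 and 3. The part of macrophages in the treatment differences was not tested.

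**Figure D5:**
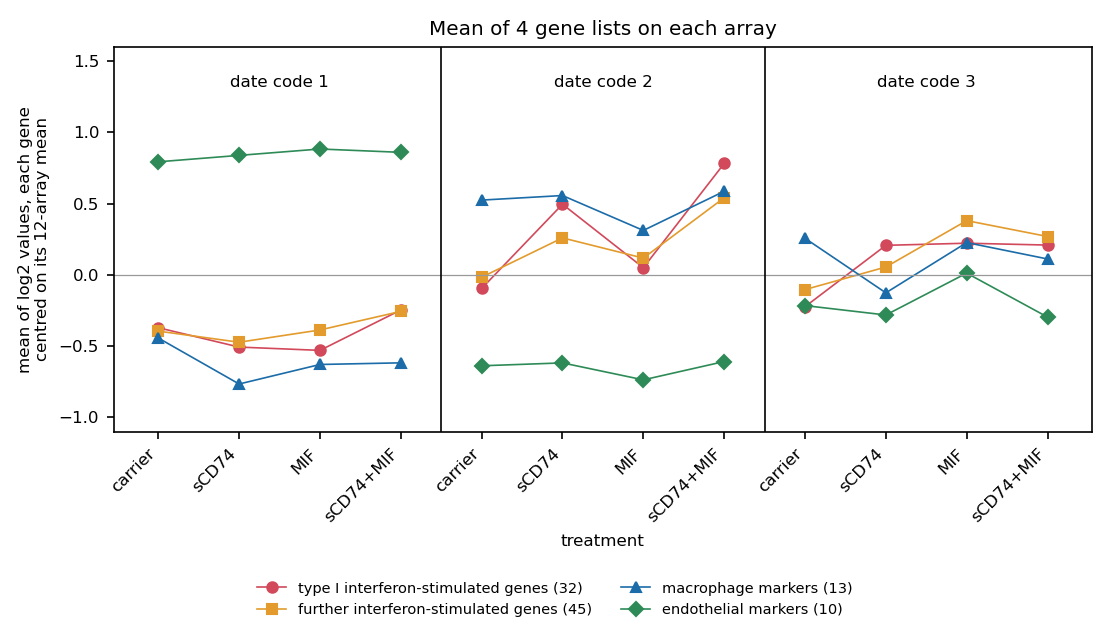
Mean of the log2 values of 4 gene lists on each of the 12 arrays (horizontal axis), each gene centred on its own mean over the arrays. Macrophage markers are lowest in date code 1, endothelial markers are highest there, and the members separate from the macrophage markers between carrier and sCD74 within date code 3.

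The rest of the pathway was read from lists of genes by function. Interferon genes themselves were low: 13 of 19 measured ligands were below the floor, and Ifnb1, the interferon of fibroblasts, was at 7.65 ± 0.18 with carrier and 7.70 ± 0.01 with both (SD, n = 3), close to it. Ifna5 was at 10.34 ± 0.39 with carrier and 10.17 ± 0.17 with both. Of the 19 ligands, 5 were higher with both than with carrier (50.3% of all genes), none called (0% of all genes). The smallest p of a ligand in that comparison belonged to Ifna6, below the floor, and Ifna2, at 7.61 ± 0.18 with carrier and 7.39 ± 0.13 with both. With MIF, 2 ligands were higher at an unadjusted p under 0.05 (1.8% of all genes), Ifnl3 and Ifna1, and Ifna1 stood at 7.30 ± 0.36 with carrier, below the floor, and at 8.08 ± 0.50 with MIF. Ligands were lower in 16 of 19 cases in date code 2 and in date code 3 than in date code 1 (medians -0.20 and -0.17), with 1 called lower in each (7.38% and 3.75% of all genes). The 9 measured receptor chains and kinases had a median of +0.07 with both and none was called (0% of all genes). Ifnar1 was at 13.001 ± 0.09 with carrier and 13.07 ± 0.09 with both. The smallest p among them belonged to Ifnar2 (+0.19 ± 0.11) and Ifngr1, a chain of the type II interferon receptor (+0.20 ± 0.13, log2 with SE). In date code 2 minus 1, 2 of the 9 were called higher (9.5% of all genes).

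Of 18 measured genes for the induction of interferon, 10 were higher with both proteins (median +0.05, 50.3% of all genes higher) and none was called (0% of all genes). The smallest p there belonged to Ddx58, the RNA sensor RIG-I (+0.50 ± 0.17), and Tlr3, an endosomal receptor for RNA (+0.38 ± 0.14), both log2 with SE at adjusted p = 0.999. Between date codes 2 and 1, 8 of the 18 were called higher (9.5% of all genes), among them Tlr7 (+1.27, adjusted p = 3.93e-05) and Tlr9 (+1.22, adjusted p = 0.000263), endosomal receptors for nucleic acid found in immune cells. Of 10 feedback inhibitors, 4 were higher with both (50.3% of all genes) and none was called (0% of all genes). The smallest p belonged to Socs1 and Socs3, both below the floor. In date code 2 minus 1 the single called inhibitor of the 10, against 9.5% of all genes called higher, was Ptpn6, the phosphatase of blood cells, at +2.63 (adjusted p = 4.38e-06).

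A list of 45 further measured interferon-stimulated genes was higher with both proteins in 38 cases (median +0.31, 50.3% of all genes higher), with 0 called and 6 higher at an unadjusted p under 0.05 (2.13% of all genes). Isg20, an RNA nuclease, had the smallest p (+0.74 ± 0.24), and Cxcl10, a chemokine, was at 7.10 ± 0.33 with carrier, below the floor, and at 8.71 ± 1.12 with both (SD, n = 3), a difference that did not pass in limma's fit (adjusted p = 0.999). In date code 2 minus 1, 28 of the 45 were called higher (9.5% of all genes), and in date code 3 minus 1, 21 (5.48%).

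Genes outside the set with the most similar profile were found by correlation with the mean of the centred member profiles over the 12 arrays, among 17181 candidates. The highest were Phf11d (r = 0.976), Gbp3 (r = 0.965), Ifit3b (r = 0.960), Irgm1 (r = 0.938) and Slfn8 (r = 0.937), followed by Ifi209, Cd69, Ddx24, Ifi204 and Cuedc2 (r = 0.914). With each array centred on its date code the highest were Ifi213 (r = 0.946, mean below the floor), Phf11d (r = 0.941), Gmds (r = 0.941), Ticrr (r = 0.938) and Gbp3 (r = 0.928). The arrays share date codes and treatments, so these values describe the arrays and are not tests.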

How the data were processed

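RNA of 12 cultures was hybridised to Affymetrix whole-transcript arrays, 3 per group. The submitters' processing notes name RMA, run by the authors, beside Affymetrix Expression Console and Transcriptome Analysis Console, without versions. The authors' deposited log2 values were taken without change. Their range was 3.08 to 18.39, and each array had 231 to 251 probe sets above 16, beyond what a plain log2 of a 16-bit scanner value allows, so folds are not given. RMA equalises the arrays' distributions, which can hide a global shift. The depth of an array is not a count. The number of arrays limits the precision, and a difference between groups had a typical (median) standard error of 0.17.

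Of 28846 probe sets, 6640 controls were left out, and among the remaining 22206 a gene symbol was given for 19572 and none for 2634. Keeping the probe set with the highest mean per symbol dropped 67 and left 19505 genes. All 32 measured members matched RefSeq by Entrez ID with unchanged symbols.

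The treatment comparisons used limma (3.58.1, R 4.3.3, two-sided moderated test) on 4 group means over 12 arrays. Date codes were compared in a fit of groups plus replicate numbers. P-values were adjusted over all 19505 genes by Benjamini-Hochberg at 0.05. Same-numbered arrays share a code in the titles, but the main treatment fit did not pair them, and only the replicate block did. Deviations from the group means correlated with r from 0.097 to 0.647 (median 0.433) for the same number. For different numbers the median was -0.212. The deviations cancel within each group, so the second median follows from the first and is no separate evidence of pairing. Alternatives were the replicate block, scaling, filters, limma's trend and robust options and leaving out arrays. The script was tested on simulated data.

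The members, the gene lists and the marker lists were chosen with earlier results of these data known. Values array by array are given for all regulators and, in each other role, for the members above the floor with the largest difference between co-treatment and carrier (up to 3) and the one with the highest mean. Other pathway genes named are those with the 2 smallest p of each list in that comparison and the ligand with the highest mean. Ifnb1, Ifna1, Ifnl3, Ifnar1, Tlr7, Tlr9, Ptpn6 and the cell type markers named were chosen after their values were seen, as were Cmpk2, Ifit2, Samd9l, Mx2, Parp9, Dtx3l, Trim25 and Ifi35.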

Additional observations from a re-analysis of the deposited data

How the results depend on the processing

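The member medians of the 3 comparisons with carrier kept their sign in every alternative run, and no member was called in any of them. The lowest adjusted p of a named member against carrier was 0.057 (Ifit3, co-treatment). The replicate block changed no call of a member or of any other gene by itself. Combined with limma's trend and robust options it called 1 gene with MIF, 6 with both proteins and 2 with both against sCD74, none of them a member. Left out array by array, the medians ran from 0.10 to 0.54 with both, from 0.07 to 0.41 with sCD74, from 0.0025 to 0.23 with MIF, from 0.02 to 0.47 for both against MIF, from -0.094 to 0.32 for both against sCD74 and from -0.21 to 0.26 for the departure from the sum. For date code 2 minus 1 the called members ran from 14 to 24 and the called genes from 2172 to 3305. For date code 3 minus 1 they ran from 3 to 15 and from 978 to 1721, and for date code 3 minus 2 the called genes ran from 59 to 227. Without treatment in the fit, 7 members were called in date code 3 minus 1. In date code 3 minus 2, 540 genes were called with low genes left out, 734 with trend and robust, and 963 (1 member) with values below their array's own negative control median set to it, an alternative chosen after seeing the data. Co-treatment against carrier turned sign for 3 named members in single alternatives: Bst2 ran from -0.12 (without the carrier array of date code 1) to 0.42, Zbp1 from -0.061 to 0.10 and Eif2ak2 from -0.30 to 0.15 with arrays or date codes left out. In date code 2 minus 1, Zbp1 ran from -0.12 to 0.20 and Eif2ak2 from -0.24 to 0.047. The cause was not tested. Signal near the negative controls limits the sizes of 9 members with carrier.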
